A study of Mus musculus with 9 samples.

Results

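The miR-188 cluster is a group of miRNA genes on the mouse X chromosome that lie inside Clcn5, the gene for an endosomal chloride and proton exchanger best known from the kidney. It was followed here in primary hippocampal neurons that were left untreated or exposed to NMDA or bicuculline. Members were chosen by name, as the mouse miRNAs on the array that carry the name of one of its hairpins, with or without an arm suffix and without a star. This gave 9 mature miRNAs (mmu-miR-188-5p, mmu-miR-188-3p, mmu-miR-362-5p, mmu-miR-362-3p, mmu-miR-500, mmu-miR-501-5p, mmu-miR-501-3p, mmu-miR-532-5p and mmu-miR-532-3p) of 611 mouse miRNAs. The species prefix is left out below. The group was proposed with the response of miR-188-5p to the treatments in view, so the treatment differences of that miRNA are given as a description without a test.

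A miRNA gene is transcribed into a longer RNA from which a hairpin is cut, and either arm of the hairpin can give a mature miRNA of its own. The mature miRNA guides the silencing complex to messenger RNAs that pair with its seed, the bases near its 5′ end. Neighbouring hairpins can be cut from 1 shared transcript, and their mature products can still differ in level. In neurons, miR-188 is known as an activity-regulated miRNA that represses neuropilin-2, a receptor for semaphorins that limits dendritic spines, and miR-501-3p is known for local control of the AMPA receptor subunit GluA1.

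RNA came from hippocampal neurons of C57BL/6 mice taken on postnatal day 1 and cultured for 10 days. The 3 groups were untreated control, NMDA (20 µM, 4 h per the labels) and bicuculline (50 µM, 4 h), with 3 arrays each from independent cell preparations. Bicuculline blocks GABA-A receptors and so drives synaptic firing, whereas bath-applied NMDA also reaches NMDA receptors outside synapses. The study's methods describe a brief NMDA exposure followed by washing and further incubation, and its text gives another NMDA dose than the labels. All groups are mixed cultures of wild-type cells, and in such bulk RNA fewer cells of a type and less RNA per cell cannot be told apart.

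The gene table of RefSeq (GRCm38.p6) places all 5 hairpins within the span of Clcn5 and on its strand, the minus strand. Along the chromosome they follow each other as Mir500, Mir501, Mir362, Mir188 and Mir532, with 0 other genes between the first and the last. The table does not say whether a hairpin is intronic or exonic. The array files name another build, so no coordinates are given.

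Mature sequences are shown because the seeds set which members could share targets and which probes face near-identical RNAs. They were read from RefSeq (GRCm38.p6), which matched 7 members by exact name. The array name miR-500 gives no arm, and both arms of Mir500 are shown. Capitals mark the seed, bases 2 to 8 from the 5′ end.
miR-188-5p: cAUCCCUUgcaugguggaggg
miR-188-3p: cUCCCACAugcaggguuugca
miR-532-3p: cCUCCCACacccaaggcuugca
miR-362-5p: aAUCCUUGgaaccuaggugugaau
miR-500-5p: aAUCCUUGcuaucugggugcuuagu
miR-501-5p: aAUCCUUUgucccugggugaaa
miR-362-3p: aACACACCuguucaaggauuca
miR-500-3p: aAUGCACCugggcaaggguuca
miR-501-3p: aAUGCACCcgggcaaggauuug
RefSeq held no mature sequence under the name miR-532-5p, so none is shown and its seed was not compared.

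Some seeds were shared in pairs, and none was common to all the sequences shown. Over their whole length, miR-362, miR-500 and miR-501 were alike on both arms. At the 3p arm, miR-362-3p was identical to miR-500-3p at 17 of 22 positions and to miR-501-3p at 15 of 22. At the 5p arm, miR-501-5p was identical to miR-362-5p at 16 of 22 positions and to miR-500-5p at 15 of 22. The seed AUGCACC was shared by miR-500-3p and miR-501-3p, which were identical at 18 of 22 positions and differed by U9C, G18A, C21U and A22G (miR-500-3p base first, positions from the 5′ end). The seed AUCCUUG was shared by miR-362-5p and miR-500-5p. The seed of miR-188-5p was found in no other sequence shown, and among the 1679 mature names of the table it recurred in miR-7061-3p alone. Bases 1 to 8 of miR-188-3p, CUCCCACA, reappear as bases 2 to 9 of miR-532-3p, so the run is shared while the seeds are offset by 1 base. The Mir188 hairpin holds both of its mature arms, in capitals, within 68 bases.
Mir188: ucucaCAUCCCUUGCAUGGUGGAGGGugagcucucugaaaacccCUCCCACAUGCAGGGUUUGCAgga

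Levels are given as a percent of the array scale, which is the 75th percentile over 265 probes that every array detected, and the brightest probe of a miRNA stands for it. The arrays found 162 to 221 mouse miRNAs well above background, with correlations of log2 levels between replicate arrays of 0.985 to 0.995. All 5 neuronal markers (miR-124, miR-9, miR-128, miR-129-3p and miR-138) were well above background on 9 of 9 arrays. Of 12 markers of other cell types, 9 were above background on 0 arrays and 2, miR-338-3p and miR-1, on all 9. The summed level of those 12 was 58.4% to 72.6% of scale in control, 60.1% to 70.9% in NMDA and 59.7% to 62.1% in bicuculline. For the neuronal markers it was 3690% to 3754%, 3491% to 3698% and 3489% to 3831%. The arrays lay on 2 slides, which divide the groups unevenly. Slide 1 held control 1 and 2, NMDA 1 and 2 and bicuculline 1, and slide 2 held control 3, NMDA 3 and bicuculline 2 and 3.

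In these neurons, 4 of the 9 members could be read on every array. In control cultures, miR-188-5p, miR-500, miR-532-5p and miR-532-3p were well above background on all 3 arrays, which 26.2% of mouse miRNAs were. After NMDA 6 members met this rule (29.3% of mouse miRNAs), with miR-362-3p and miR-362-5p added, and after bicuculline the number was 4 (26.2%). The gain after NMDA depended on the rule, since the software's own call per miRNA gave 6 members in each group, and a rule that every spot of a probe must pass gave 4 in control, 4 after NMDA and 2 after bicuculline. The arms miR-188-3p, miR-501-5p and miR-501-3p were not well above background with any of their 4 probes on any array, 0 of 36 probe readings each. Their brightest probes read at most 1.26%, 1.28% and 2.70% of scale, under the floor of 7.94% that was set for dim signals. At the Mir188 hairpin the 5p arm was thus read on 9 of 9 arrays and the 3p arm on 0. These 3 arms entered no comparison.

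The miR-188-5p level spread more widely than that of any other member. Its 3 control arrays read 10.5%, 9.56% and 18.8% of scale. The 3 NMDA arrays read 14.0%, 16.9% and 27.5%, and the 3 bicuculline arrays 9.56%, 15.8% and 20.3%. In each group the highest array was the third replicate, on slide 2, and the groups overlapped. Group means were 13.0% ± 5.08 in control, 19.5% ± 7.11 after NMDA and 15.2% ± 5.41 after bicuculline (SD, n = 3). The order NMDA, bicuculline, control held no neighbours that stood further apart than these SDs.

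In contrast, miR-500 held nearly 1 level across all conditions. It read 29.2%, 33.6% and 32.3% of scale in control, 32.7%, 34.3% and 35.6% after NMDA, and 32.8%, 33.8% and 32.6% after bicuculline. Its highest array was 1.22 times its lowest, against 2.87 times for miR-188-5p. The arms of Mir532 followed, the 5p arm steadier than the 3p arm. The 5p arm, miR-532-5p, read 17.5%, 18.3% and 16.7% in control, 17.5%, 18.2% and 18.0% after NMDA, and 18.7%, 18.0% and 16.4% after bicuculline. The 3p arm, miR-532-3p, read 13.7%, 16.8% and 12.0% in control, 13.1%, 12.0% and 12.7% after NMDA, and 13.8%, 13.1% and 11.3% after bicuculline. The highest array was 1.14 times the lowest for the 5p arm and 1.49 times for the 3p arm, and the treated arrays lay within or close to the control range for both.

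The Mir362 arms stood at the limit of detection. The 3p arm, miR-362-3p, was well above background on 7 of 9 arrays and read 8.66%, 10.6% and 9.57% in control, 12.3%, 10.8% and 7.87% after NMDA, and 11.5%, 9.48% and 7.68% after bicuculline. The 5p arm, miR-362-5p, was well above background on 6 arrays and read 9.07%, 7.28% and 7.42% in control, 8.75%, 8.02% and 7.63% after NMDA, and 7.20%, 9.12% and 6.97% after bicuculline. Both series cross the floor of 7.94%, so differences between their lowest arrays carry no order. The members that entered the tests are those that passed this detection rule in at least 1 of the groups compared.

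**Figure D1:**
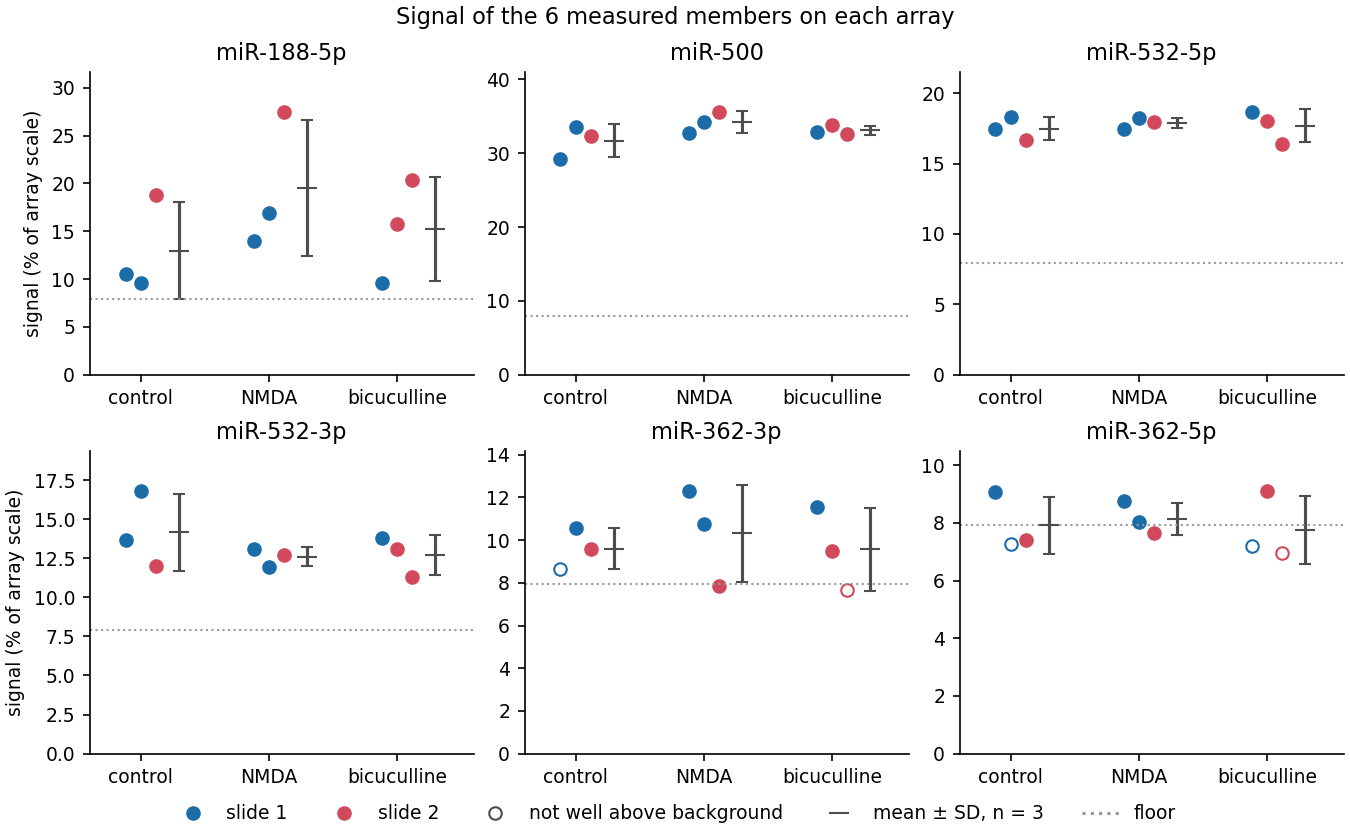
Signal of each of the 6 measured members in percent of the array scale (y axes from 0), by treatment (x axis). Points are single arrays coloured by slide, open where the probe was not well above background, bars are mean ± SD (n = 3), and the dotted line is the floor of 7.94%. The slide 2 arrays of miR-188-5p lie above the slide 1 arrays of the same treatment, and miR-500 and miR-532-5p vary little.

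The comparison of NMDA with control asked which miRNAs move with toxic NMDA receptor stimulation. Of the 6 members in the fit, limma called 0 at an adjusted p under 0.05, while 8.29% of the 181 miRNAs tested were called. The count was also 0 at an unadjusted p under 0.05 (11% of all) and by the methods' t-test (12 of 181). No member had groups that did not overlap (14.9% of all). The members had a median log2 difference of 0.06, beside -0.01 over all 181. The count of members raised by more than 20%, the study's own limit, was 1 (9.94% of all), and this was miR-188-5p. Nothing is read from the place of miR-188-5p in these counts or in the median.

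For miR-188-5p the log2 difference between NMDA and control was 0.59 (SE 0.32), a ratio of 1.51. Within slide 1 it was 0.62 and within slide 2, with 1 array a group, 0.55. With the slide or the replicate number as a block the difference kept its size and its SE fell to 0.09. NMDA and control arrays of the same replicate number lay on the same slide in all 3 pairs. These values are a description, since the members were chosen with this response known. Leaving out NMDA 3 gave 0.31 and leaving out control 3 gave 0.90. The value was 0.05 in the authors' own table and 0.17 when arrays were scaled to all probes, a scaling that moved the median of all 181 miRNAs to -0.43.

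None of the other members was called between NMDA and control at the reported scaling. For miR-500 the log2 difference was 0.11 (95% CI -0.09 to 0.31), and for miR-532-5p it was 0.03 (-0.15 to 0.21). The 3p arm of Mir532 gave -0.16 (-0.46 to 0.15). For the Mir362 arms the difference was 0.09 (-0.30 to 0.48) at the 3p and -0.01 (-0.22 to 0.20) at the 5p arm. All 5 had a limma adjusted p of 0.991, and each interval includes changes of up to 0.20 or more in log2. Within slides, miR-362-3p gave 0.27 on slide 1 and -0.27 on slide 2, and miR-532-3p gave -0.28 and 0.08, so neither kept 1 direction. Under quantile normalization, which moved the median of all miRNAs to -0.13, miR-532-5p turned to -0.19 and was called (limma adjusted p 0.032), and miR-532-3p was -0.41 (0.095). In that setting 27 of all 181 miRNAs were called. Scaled to all probes, miR-532-3p was -0.58 (limma adjusted p 0.070) beside a median of -0.43.

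Bicuculline against control asked the same of synaptic stimulation. Of the 4 members in the fit, limma called 0 (0.617% of 162 miRNAs), and 0 passed at an unadjusted p under 0.05 (1.23% of all). The methods' t-test called 0 members and 0 of all 162 miRNAs. No member had groups that did not overlap (3.09% of all). The median of the members was 0.04, beside -0.02 over all 162. Nothing is read from the place of miR-188-5p in these counts or in the median. The miR-188-5p difference was 0.23 (SE 0.32) over all arrays and -0.07 within each slide. Bicuculline had 2 arrays on slide 2 where control had 1, and with the slide as a block the value was -0.07 (SE 0.12). The differences of miR-500 (0.06, 95% CI -0.14 to 0.27), miR-532-5p (0.02, -0.20 to 0.23) and miR-532-3p (-0.15, -0.47 to 0.18) had a limma adjusted p of 0.999 each.

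Set directly against each other, NMDA and bicuculline gave 0 calls by limma among 6 members (8.84% of 181 miRNAs). The count was 0 at an unadjusted p under 0.05 (13.3% of all) and 0 by the methods' t-test (10 of 181). Again nothing is read from the place of miR-188-5p in these counts. For miR-188-5p the log2 difference was 0.36 (SE 0.33) over all arrays, 0.69 within slide 1 and 0.62 within slide 2. The slide block gave 0.65 (SE 0.13). Scaled to all probes it was -0.12, where the median of all miRNAs was -0.47. The remaining 5 members lay between -0.01 and 0.09, with limma adjusted p values of 0.990 to 0.993. The 3 comparisons share arrays, so their values are not independent of each other.

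**Figure D2:**
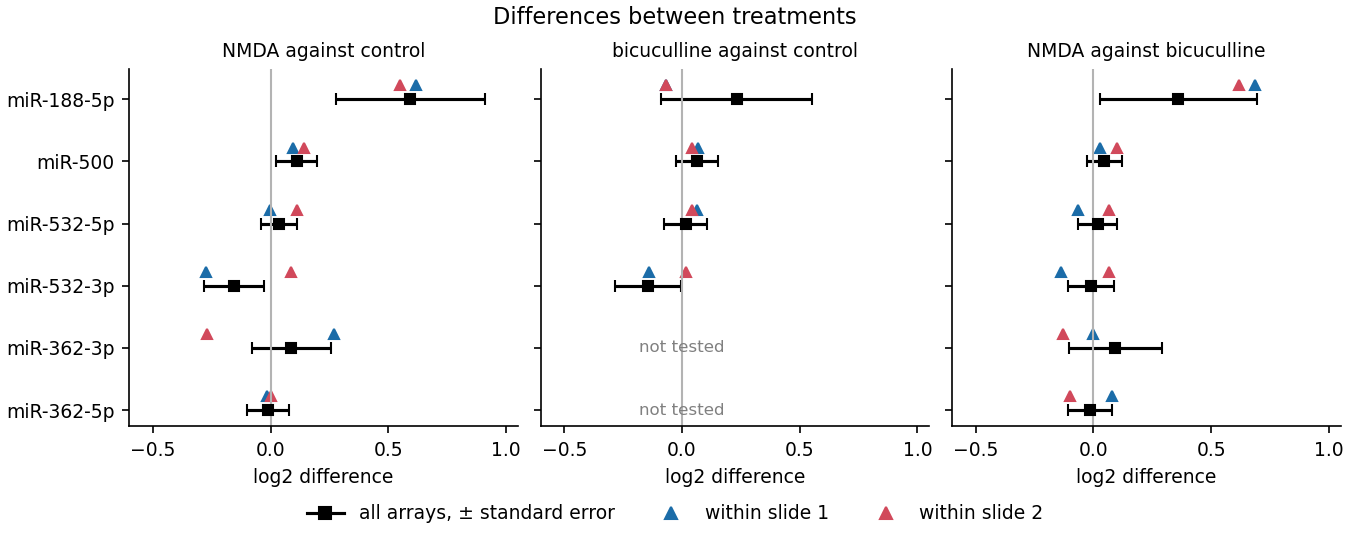
Log2 differences of the members (x axes) in the 3 comparisons, with squares for all arrays (bars, standard error of the limma fit) and triangles for the difference within slide 1 and within slide 2. For miR-188-5p both within-slide values lie near 0.6 for NMDA against control and at -0.07 for bicuculline against control, and the other members lie close to 0.

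The miR-188-5p level also differed between the slides. In a limma fit over all 9 arrays with treatment in the model, a comparison added after the values had been seen, miR-188-5p was higher on slide 2 than on slide 1 by 0.88 in log2 (SE 0.10, 95% CI 0.66 to 1.10, adjusted p 0.0029), a ratio of 1.84. This was the largest rise among the 181 miRNAs, of which 22.7% were called in either direction. The rise itself held in all 10 ways of computing the levels, from 0.36 in the authors' table to 1.23 with the total gene signal. Its limma adjusted p values were at most 0.012. The third replicates of all groups lay on slide 2 and the first on slide 1. Slide and replicate number are thus largely the same split. The labels do not say whether arrays of 1 replicate number came from the same cell preparation. With 2 slides, the SE, interval and p values measure scatter between arrays, not variation between slides or preparations. They describe these 2 slides only. The replicate number that crossed slides was the second. Bicuculline 2, on slide 2, read 15.8%, while control 2 and NMDA 2, on slide 1, read 9.56% and 16.9%.

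At the reported scaling, the other members gave smaller slide differences. The limma slide difference was 0.05 for miR-500 (adjusted p 0.529), -0.02 for miR-362-5p (0.858), -0.07 for miR-532-5p (0.363), -0.16 for miR-532-3p (0.259) and -0.32 for miR-362-3p (0.094), 0 calls among 5 in this fit. For the Mir362 arms, arrays raised to the floor understate these differences. Without scaling, miR-362-3p was called as lower on slide 2 (-0.46, adjusted p 0.048). With the total gene signal, where 49.7% of 181 miRNAs were called, miR-500 was called as higher on slide 2 (0.39, adjusted p 0.024). There miR-532-3p (-2.79) and miR-362-5p (-1.59) were called as lower, differences larger in size than the 1.23 of miR-188-5p. Measured against the mean of the 3 other members read on all arrays (miR-500, miR-532-5p and miR-532-3p), log2 miR-188-5p was -0.77 ± 0.41 on slide 1 (SD, n = 5) and 0.07 ± 0.33 on slide 2 (SD, n = 4). The slides thus differed by 0.84 in this ratio, a value given as a description because the split was chosen after the slide difference had been seen and the treatments are not evenly spread over the slides.

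Within treatment groups, the SD of log2 levels was 0.53 for miR-188-5p, rank 2 from the top among 181 miRNAs, whose median was 0.14. With the slide in the model it was 0.15, rank 49, beside a median of 0.10. At the other end, miR-500 and miR-532-5p had an SD of 0.07 each (ranks 161 and 160). The arms between were miR-362-3p with 0.26 (rank 21), miR-532-3p with 0.17 (rank 66) and miR-362-5p with 0.10 (rank 122). For the Mir362 arms, above all the 5p arm, arrays raised to the floor narrow the SD. Products of neighbouring hairpins thus lay near both ends of the ranking.

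**Figure D3:**
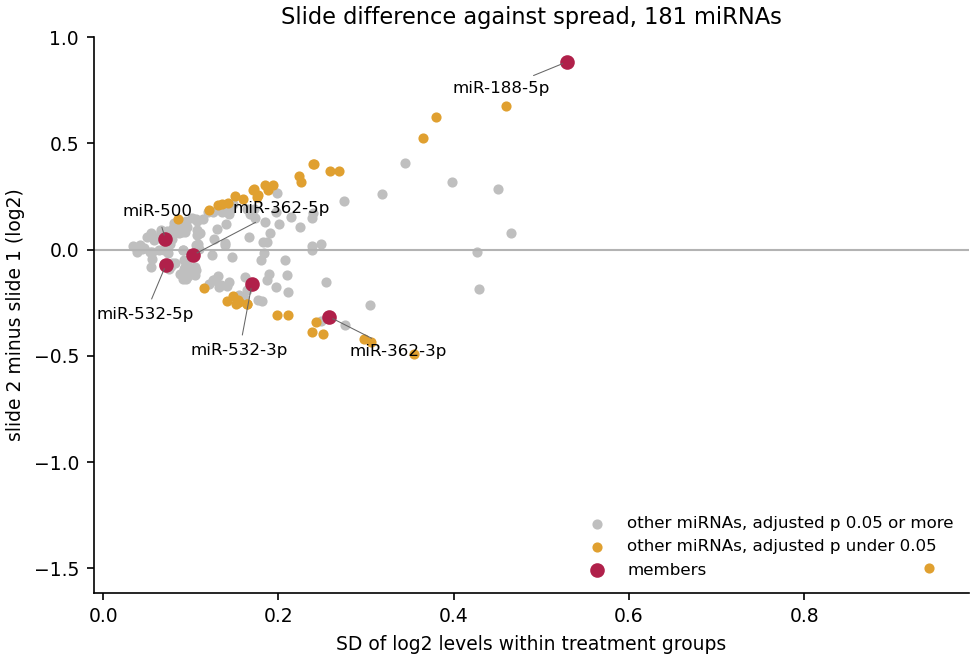
Slide 2 minus slide 1 in log2 (y axis) against the SD of log2 levels within treatment groups (x axis) for 181 miRNAs, with the 6 measured members labelled and the other miRNAs coloured by the adjusted p of the slide difference. The point of miR-188-5p, at 0.53 and 0.88, is the highest in the plot, and the other members lie at slide differences between -0.32 and 0.05.

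The array carries 4 probes for miR-188-5p, which ranked the slides alike and scattered more between treatments. On each array the highest probe was 1.14 to 1.45 times the lowest. The 4 probes gave log2 differences of 0.31 to 0.59 between NMDA and control, and all 4 were positive within slide 1 (0.29 to 0.62) and within slide 2 (0.22 to 0.55). The brightest probe, which stands for the miRNA above, gave the largest of these in every case. For bicuculline against control the probes ranged from -0.03 to 0.32 over all arrays, from -0.35 to 0.19 within slide 1 and from -0.33 to -0.07 within slide 2. Probes of 1 miRNA on 1 array read the same RNA and are not replicates.

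**Figure D4:**
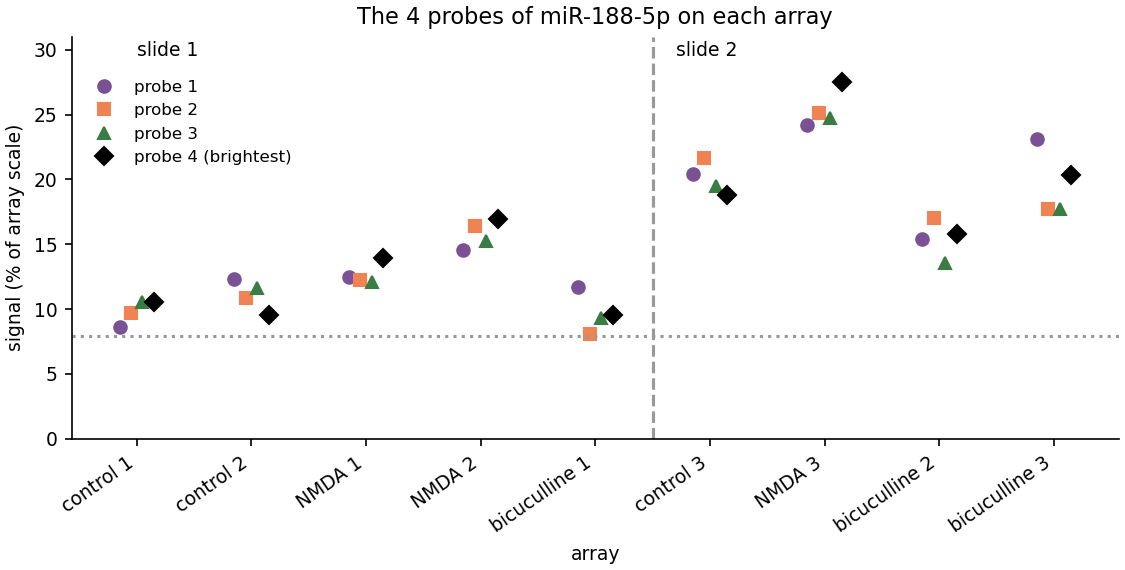
Signal of the 4 miR-188-5p probes in percent of the array scale (y axis from 0) on each of the 9 arrays (x axis), with slide 1 left and slide 2 right of the dashed line and the floor dotted. All 4 probes read 8.04% to 16.9% on slide 1 and 13.6% to 27.5% on slide 2.

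The probes of some other members agreed less well. Both miR-500 probes were well above background on 9 arrays, at 13.3% to 16.2% and 29.2% to 35.6% of scale. Of 36 readings of the 4 miR-532-3p probes, 9 were well above background, and these all came from 1 probe, while 34 of 36 readings were well above background for miR-188-5p. The total gene signal of the scanner software, which sums probes per miRNA, gave another picture of miR-532-3p. Unscaled, it was 191 to 248 on slide 1 and 15.7 to 26.1 on slide 2, whereas the brightest probe read 75.3 to 107 and 47.1 to 76.3. For miR-362-5p the total was 83.9 to 103 and 9.64 to 30.2, with the probe at 42.0 to 55.3 and 29.0 to 53.2. In a limma fit on the total gene signal the slide difference was -2.79 for miR-532-3p (adjusted p 3.94e-07) and -1.59 for miR-362-5p (adjusted p 0.00049), and 49.7% of 181 miRNAs were called. Slide 1 was read with version 10.7.1.1 of the software and slide 2 with 10.7.3.1, whose part in these values was not tested.

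**Figure D5:**
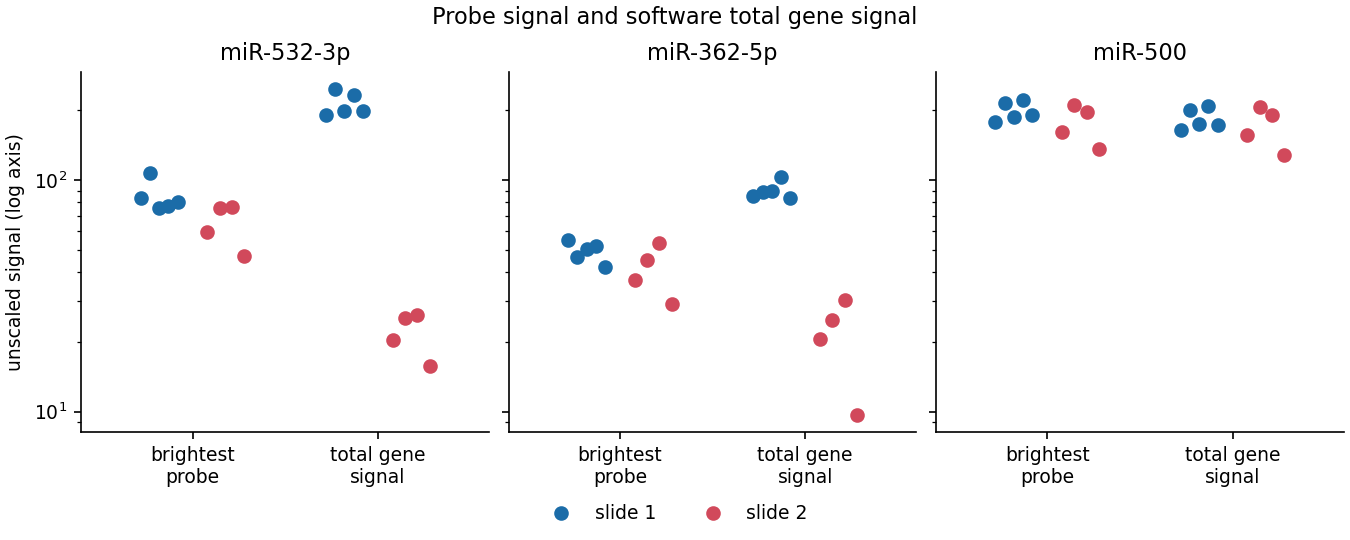
Unscaled signal (log axis) of miR-532-3p, miR-362-5p and miR-500 from the brightest probe and as the software's total gene signal, with 1 point per array coloured by slide. For miR-532-3p the totals of 191 to 248 on slide 1 and 15.7 to 26.1 on slide 2 are far apart while the probe signals lie close, and for miR-500 both measures overlap between slides.

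Across the 9 arrays, the miRNAs with the pattern most like miR-188-5p lay outside Clcn5. Among 152 miRNAs read on all arrays, the highest Pearson r was that of miR-1224 (0.94, Spearman rho 0.97), a miRNA made from a short spliced intron. It was followed by miR-487b (0.84, 0.77), of the imprinted Dlk1-Dio3 locus, and miR-709 (0.82, 0.73). Without the 2 arrays farthest from the median of miR-188-5p, r was 0.88, 0.69 and 0.59. All 3 were also higher on slide 2, by 0.63, 0.21 and 0.67 in log2 (limma adjusted p 0.0042, 0.031 and 0.024). The part of the slide in each correlation was not tested. The study lists miR-709 among the miRNAs raised by NMDA, and the part of treatment in its likeness to miR-188-5p was not tested either. Its arrays read 735%, 971% and 1188% of scale after NMDA, 445%, 485% and 680% in control, and 280%, 450% and 676% after bicuculline. For miR-1224 the arrays read 199% to 297% of scale on slide 1 and 290% to 437% on slide 2.

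Within the cluster the likeness was low or inverse. Over the same 9 arrays, miR-188-5p had r of 0.52 with miR-500 (rho 0.22), -0.45 with miR-532-5p (-0.60) and -0.73 with miR-532-3p (-0.87). The arms of Mir532 had r of 0.60 with each other (rho 0.58). These values describe arrays that share slides and a scale, and they were not tested.

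Other miRNAs known from synaptic plasticity were also listed, namely miR-132, miR-212, miR-134, miR-138, miR-137, miR-125b-5p, miR-181a, miR-29a and miR-485, and 8 of these 9 were tested. This list was chosen with earlier results of these data known, and the study names miR-132 and miR-212 as raised by bicuculline. Calls on it are a description and no independent support. After NMDA, limma called 0 of 8 (8.29% of all), and the median log2 difference was 0.01. The count was 0 at an unadjusted p under 0.05 (11% of all) and 0 by the methods' t-test (12 of 181). After bicuculline limma called 1 (0.617% of all), miR-212, a miRNA under CREB control. At an unadjusted p under 0.05 there were 2 (1.23% of all), miR-132 and miR-212. The methods' t-test called 0 of them and 0 of all 162. The log2 level of miR-212 was 5.71 after bicuculline and 3.72 in control, a difference of 1.98 (SE 0.29, limma adjusted p 0.022). The call was lost without bicuculline 1 and without bicuculline 2. It was also lost under quantile normalization, the total gene signal, no filter on dim miRNAs and the methods' t-test. In each of these settings 0 of all miRNAs were called. A filter that asked for detection on all arrays of both groups left miR-212 out, so it was not tested there. It entered the reported fit only through its detection on all bicuculline arrays. Over the 9 arrays, miR-212 was well above background on 8, and its lowest reading, 7.59% of scale, lay under the floor. For miR-132, made from the same locus, the difference was 0.64 (SE 0.17, limma adjusted p 0.384, or 0.027 with the replicate block), and the groups did not overlap. NMDA against bicuculline again gave 1 call, miR-212 at -1.68 (SE 0.16, limma adjusted p 0.000275), with 8.84% of all miRNAs called.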

How the data were processed

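Each of 9 cultures was measured on 1 one-colour Agilent mouse miRNA array. The authors deposited scanner output, with spot intensity values that Feature Extraction (10.7.1.1 or 10.7.3.1) had background-subtracted but that were not normalized between arrays. The authors also deposited log2 values per miRNA, made in a way not given in the sources used here. These served as an alternative only.

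Control spots and 3278 flagged spots were left out, and 0 spots were saturated. A probe counted as detected, or well above background, when the software marked 50% or more of its spots so, and a miRNA when any probe did. Each array was scaled to the 75th percentile of the 265 probes detected everywhere. Values under 7.94% of that scale were raised to it before taking log2, which understates changes near the floor. miRNAs that all 3 arrays of either group detected were tested with limma 3.58.1 (R 4.3.3), two-sided, without covariates, adjusted by Benjamini-Hochberg at 0.05. The step was tested on simulated data. With 3 arrays a group, array number limits precision.

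The members and lists were chosen with earlier results of these data known. Named were the 9 members, called plasticity-linked miRNAs, the cell type markers and the 3 miRNAs most correlated with miR-188-5p. The slide difference and within-slide values were added after seeing the data.

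Whether replicate numbers pair arrays was checked from deviations of 156 miRNAs from group means. The correlations were 0.36, 0.76 and 0.63 for NMDA with control. They were 0.59, 0.08 and 0.72 for bicuculline with control and 0.62, -0.03 and 0.72 for NMDA with bicuculline. The second pair of each of these last 2 comparisons lay on different slides, and all other pairs shared a slide. The check therefore cannot tell arrays paired by replicate number from arrays that share a slide.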

Additional observations from a re-analysis of the deposited data

How the results depend on the processing

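The count of members called for NMDA against control, 0 as reported, was 1 without scaling (18 of all 181 miRNAs called). It was 1 with the replicate block (17 of 181) and 1 with the slide as a block (17 of 181). Each time this was miR-188-5p, whose response was known when the members were chosen, so these counts are no test of it. Under quantile normalization the count was 1 (27 of 181 called), miR-532-5p. Its difference turned to -0.19 (limma adjusted p 0.032) where the median of all miRNAs was -0.13. For NMDA against bicuculline the count was 3 when arrays were scaled to all probes and 1, again miR-188-5p, with the slide as a block. Scaled to all probes, the median of all miRNAs was -0.47 and 143 of 181 were called, with miR-500 at -0.43 and miR-532-5p at -0.46 (limma adjusted p 0.011 each). For bicuculline against control the count of members was 0 in all 15 alternatives and with each array left out. The miR-188-5p difference between NMDA and control was 0.047 in the authors' table and 0.17 to 0.65 in 12 other alternatives. Leaving out single arrays gave 0.31 to 0.90 for it, 0.06 to 0.60 for NMDA against bicuculline and -0.01 to 0.53 for bicuculline against control.

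Plasticity-linked miRNAs called after bicuculline, 1 as reported, were 0 with the total gene signal, quantile normalization, no filter and the methods' t-test. Those settings called 0 of all miRNAs. The plasticity-linked count was also 0 with the filter on both groups, which left miR-212 untested. It was 2 with the replicate block (2 of all 162 miRNAs), and 0 to 1 with single arrays left out. Against NMDA the count was 5 scaled to all probes, where 143 of all 181 miRNAs were called. It was 2 scaled to the median (17 of 181 called) and 2 under quantile normalization (28 of 181 called). Members well above background on all bicuculline arrays were 2 when every spot had to pass. The replicate block changed no other call. The cause of these shifts was not tested. Signal over background limits the Mir362 arms, which lie at the floor, and leaves miR-188-3p and both Mir501 arms without a measured level.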
